A study of Homo sapiens with 9 samples.

Results

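The GC-box factors examined here are 10 genes of the SP and Krüppel-like factor (KLF) family, namely SP1, SP2, SP3, SP4, KLF5, KLF9, KLF10, KLF11, KLF13 and KLF16. They were taken by gene symbol from 26485 genes measured in MDA-MB-231, a cell line established from a human breast cancer that lacks the oestrogen and progesterone receptors and HER2. RNA of cells stably expressing a nonspecific (NS) shRNA was compared with RNA of cells expressing ASAH1 shRNA #1 or ASAH1 shRNA #2. Both ASAH1 hairpins target the mRNA of acid ceramidase, the lysosomal enzyme that cleaves ceramide to sphingosine and a fatty acid. Each group had 3 libraries, described as biological replicates but not as separately derived lines, so the p-values measure the spread between these libraries. All 9 libraries come from the same line with an shRNA construct, and the design holds 1 nonspecific hairpin.

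SP and KLF proteins bind DNA through similar zinc fingers near their carboxyl end, and many of them recognise GC boxes (core GGGCGG) or the related CACCC box. SP1 and SP3 are widely expressed and meet at the same promoters, where SP1 usually activates and SP3 can activate or repress. KLF5 acts mainly as an activator in epithelial cells, whereas KLF9, KLF10, KLF11, KLF13 and KLF16 carry a short motif that recruits the SIN3A corepressor. The study examined SP1 as a regulator of DUSP5, a phosphatase that acts on ERK, and the question here is how the mRNAs of SP1 and of relatives that could share its sites moved with the knockdown.

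Family members carry such boxes in front of their own genes, and 4 windows are shown to illustrate where SP and KLF proteins could bind. Each runs 5′ to 3′ over the 250 bases before a RefSeq start on GRCh38 (hg38), with every GGGCGG or its reverse complement CCGCCC in capitals, and none overlaps an exon of GENCODE, although that of KLF5 lies inside the span of the gene, upstream of its main transcript. SP1 (chr12:53379926-53380175, plus strand) is the reference factor, KLF5 (chr13:73058755-73059004, plus strand) rose with both hairpins, KLF16 (chr19:1863580-1863829, minus strand) held the most boxes, and KLF9 (chr9:70414658-70414907, minus strand) held none.
SP1: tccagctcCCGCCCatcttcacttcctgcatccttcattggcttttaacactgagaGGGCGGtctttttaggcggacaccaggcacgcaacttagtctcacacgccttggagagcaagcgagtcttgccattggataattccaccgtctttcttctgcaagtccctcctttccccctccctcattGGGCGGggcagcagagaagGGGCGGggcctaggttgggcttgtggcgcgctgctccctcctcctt
KLF5: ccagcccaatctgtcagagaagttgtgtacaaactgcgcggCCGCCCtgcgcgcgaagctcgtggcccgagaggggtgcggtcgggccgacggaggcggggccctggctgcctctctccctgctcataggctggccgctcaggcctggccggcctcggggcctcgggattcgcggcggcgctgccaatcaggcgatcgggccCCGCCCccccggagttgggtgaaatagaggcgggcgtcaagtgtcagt
KLF16: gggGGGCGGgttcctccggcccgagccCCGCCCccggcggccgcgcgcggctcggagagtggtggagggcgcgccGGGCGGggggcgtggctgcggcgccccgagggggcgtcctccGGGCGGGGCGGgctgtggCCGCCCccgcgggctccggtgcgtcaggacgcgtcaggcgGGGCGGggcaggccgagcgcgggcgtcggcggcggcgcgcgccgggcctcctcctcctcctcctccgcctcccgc
KLF9: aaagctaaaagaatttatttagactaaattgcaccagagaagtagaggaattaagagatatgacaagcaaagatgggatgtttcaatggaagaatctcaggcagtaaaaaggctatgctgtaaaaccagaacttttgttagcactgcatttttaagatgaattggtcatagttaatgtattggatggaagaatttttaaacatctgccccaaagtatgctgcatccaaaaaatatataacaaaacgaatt
Among the RefSeq windows, 9 of the 10 genes had an entry and KLF10 had none. For 8 of them the window ended at the start of the canonical GENCODE transcript, and 7 of these 8 held a GC box, where 42.6% of all 35116 windows did. SP1 and SP4 had 4 boxes each, KLF13 had 3, SP2, SP3 and KLF5 had 2 and KLF16 had 7, while 7.63% of all windows held at least 4. The window of KLF11 began downstream of its GENCODE start and was not counted. The letters CACCC, searched on both strands, occurred in 4 of the same 8 windows (SP3, SP4, KLF5 and KLF13) and in 54.7% of all windows. A match of letters is not a measured binding site, and no binding was measured in these libraries.

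The reads on genes ranged from 30989598 to 34867548 per library with NS shRNA, from 23806003 to 39791698 with shRNA #1 and from 35653318 to 49659106 with shRNA #2. The deposited values are normalized read counts (reads divided by a size factor per library), scaled separately in the table of each hairpin, and the same NS shRNA libraries serve both tables. ASAH1 was lower, with log2 fold changes of -1.76 for shRNA #1 and -2.63 for shRNA #2, and no knockdown library overlapped an NS shRNA library. Markers set out for MDA-MB-231 (VIM, CD44, AXL, CAV1, EGFR, KRT18) together made up 5561 to 5769 RPM (reads scaled to 1000000 reads on genes per library) with NS shRNA, 5118 to 5269 with shRNA #1 and 4364 to 4575 with shRNA #2, so that the sums did not overlap between groups. By the test described below these 6 genes moved both ways, with 2 higher and 3 lower for shRNA #1 and 2 higher and 2 lower for shRNA #2. Of all genes tested, 32.8% were higher and 33.3% lower with shRNA #1, and 33.5% and 33.4% with shRNA #2. ESR1 and PGR had at most 3 reads in each library. The 6 luminal markers summed to 322 to 390 RPM with NS shRNA, 188 to 228 with shRNA #1 and 225 to 277 with shRNA #2. Of the 3 luminal markers tested, 1 was higher and 2 lower with shRNA #1, and 2 were higher and 1 lower with shRNA #2. The 6 blood and endothelial markers together did not exceed 3.61 RPM, with CD3E and CDH5 at no more than 3 reads. Of the 2 tested with shRNA #1, 1 was higher and 1 lower (log2 fold changes 2.39 and -0.59). The 1 tested with shRNA #2 was lower (-0.91). The part of these marker shifts in the results was not tested.

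KLF10 had the largest change of the 10 genes with either hairpin, with a level 4.45-fold higher with shRNA #1 and 5.50-fold higher with shRNA #2, and SP4, KLF5 and KLF11 were also higher with both. SP1 and SP3 passed the test with neither hairpin. With shRNA #1, 6 of the 10 genes were higher (SP2, SP4, KLF5, KLF9, KLF10, KLF11), 1 was lower (KLF13) and 3 did not pass (SP1, SP3, KLF16), where 32.8% of all 14341 genes tested were higher and 33.3% lower, and relative to ACTB all 10 were higher. With shRNA #2, 6 were higher (SP4, KLF5, KLF10, KLF11, KLF13, KLF16), 0 were lower and 4 did not pass (SP1, SP2, SP3, KLF9), where 33.5% of 14250 genes were higher and 33.4% lower, and relative to ACTB all 10 were again higher. The count of 0 lower genes with shRNA #2 was also 0 at an unadjusted p under 0.05 in limma, 0 with edgeR and 0 with DESeq2, and it was 1 (SP2) after upper quartile rescaling. The median log2 fold change of the 10 genes was 0.23 with shRNA #1 and 0.44 with shRNA #2, against 0.0013 and 0.013 for all genes tested. The other SP and KLF genes tested had medians of -0.07 and -0.03. The 10 genes were chosen with earlier results of these data known, so these contrasts describe them and test nothing. All 10 passed the filter on low values (a mean normalized count of at least 10). The test was limma on log2(normalized count + 1), two-sided, with Benjamini-Hochberg adjustment over all genes at 0.05. Because the comparisons share their control libraries, they are not independent of each other. In bulk RNA, a change in the RNA per cell and a change in the share of cells that carry it cannot be told apart.

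**Figure D1:**
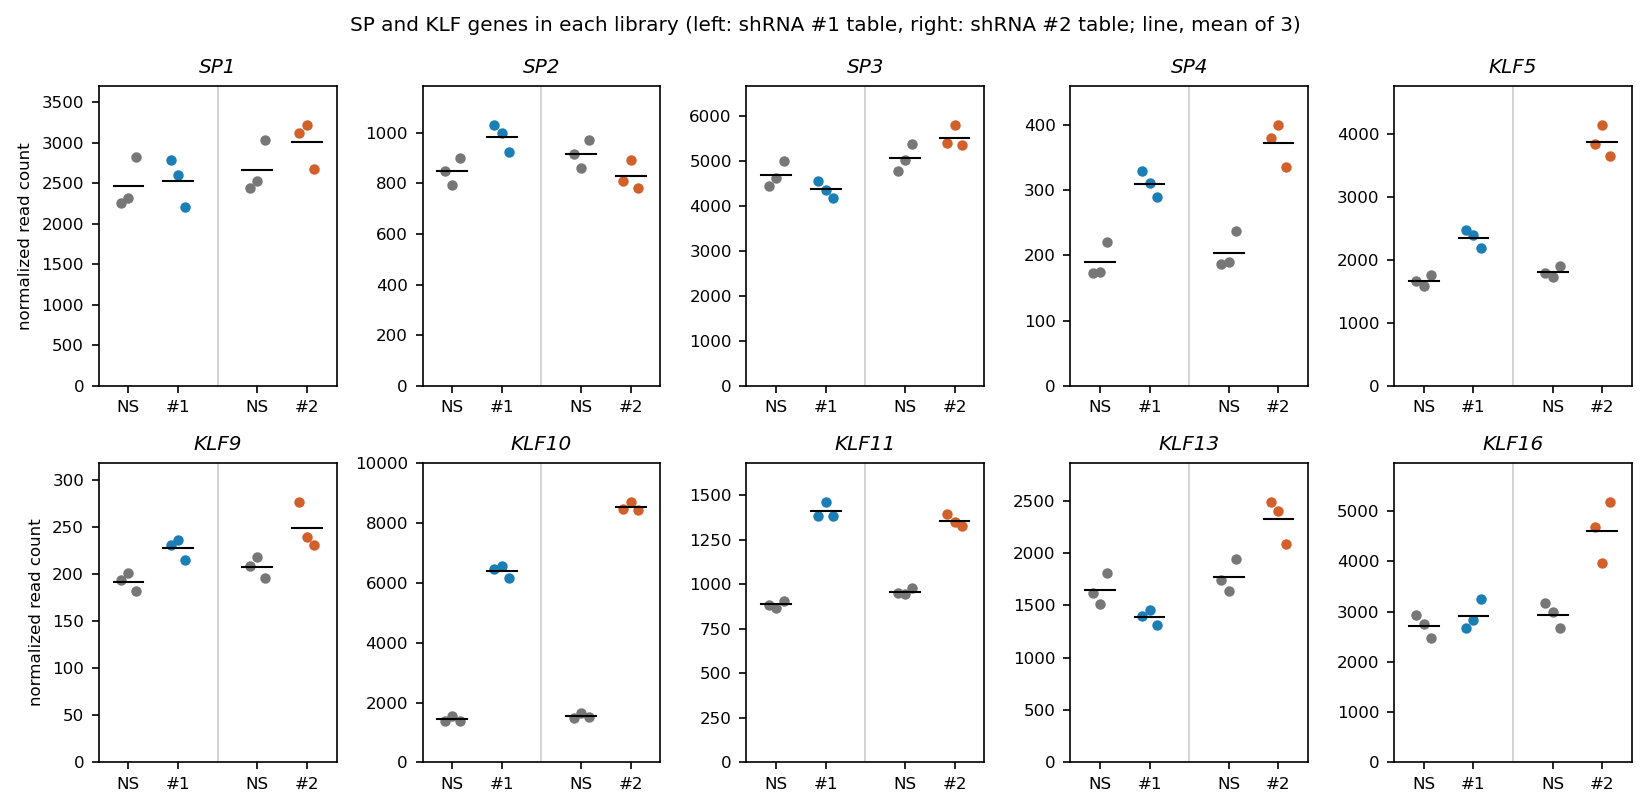
Normalized read count (vertical axes, from 0) of each SP and KLF gene in every library, with NS shRNA in grey, ASAH1 shRNA #1 in blue and ASAH1 shRNA #2 in orange; each panel has the shRNA #1 table on the left and the shRNA #2 table on the right, and lines mark the mean of 3 libraries. The KLF10 libraries lie between 6155 and 6571 with shRNA #1 and between 8453 and 8723 with shRNA #2, far above NS shRNA, whereas the SP1 libraries of all groups overlap.

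**Figure D2:**
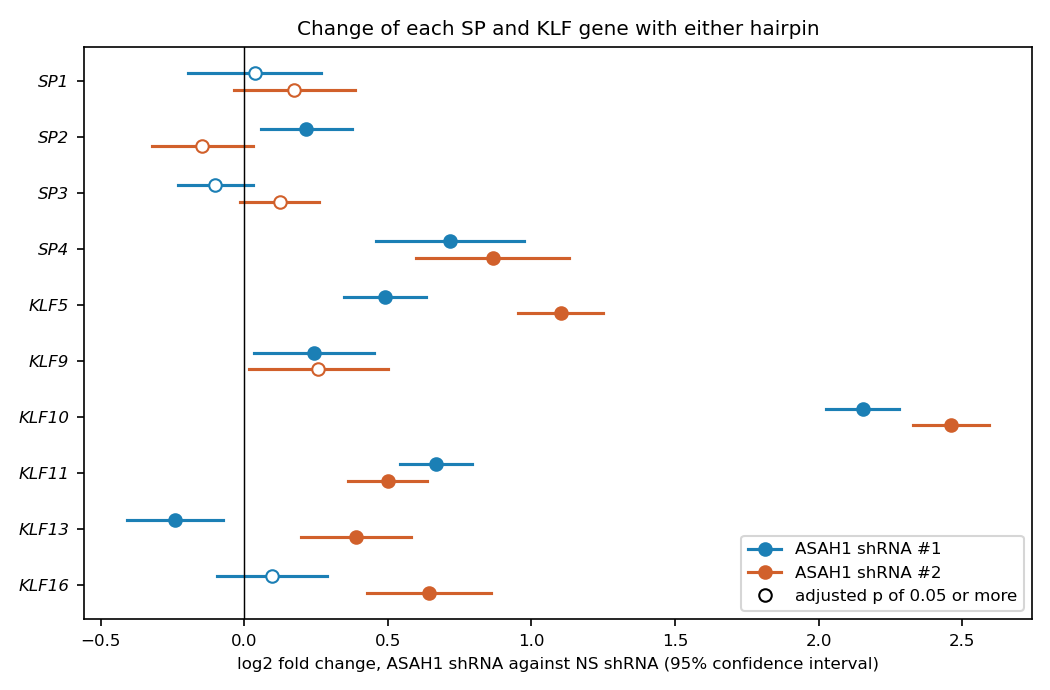
Log2 fold change of each SP and KLF gene against NS shRNA (horizontal axis, lines are 95% confidence intervals from limma), with shRNA #1 in blue and shRNA #2 in orange and open points for an adjusted p of 0.05 or more. KLF10 stands at 2.15 and 2.46, and KLF13 lies at -0.24 with shRNA #1 (0.65 relative to ACTB) and at 0.39 with shRNA #2.

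SP1 (chromosome 12 of hg38, 53380176 to 53416446) encodes the founding member of the family. Its normalized count was 2255, 2322 and 2817 with NS shRNA and 2781, 2597 and 2203 with shRNA #1. The groups overlapped over nearly their whole range, and the log2 fold change was 0.04 (standard error [SE] 0.10, 95% confidence interval -0.19 to 0.27, limma adjusted p = 0.770), and it lay between -0.04 and 0.14 when 1 library was left out at a time. In the shRNA #2 table it was 2434, 2520 and 3037 with NS shRNA and 3112, 3215 and 2676 with the hairpin, where the highest NS shRNA library exceeded the lowest knockdown library. This gave a log2 fold change of 0.17 (SE 0.10, 95% confidence interval -0.04 to 0.39, limma adjusted p = 0.128). It passed without NS shRNA replicate 3 (0.27, limma adjusted p = 0.0105) and when shRNA #2 replicate 3 was left out (0.25, limma adjusted p = 0.0282), the adjusted p of its alternatives running from 0.000199 to 0.442. The lowest of these belongs to values taken relative to ACTB, the reference that the study used for quantitative PCR. By that method the study reported higher SP1 mRNA in MDA-MB-231 cells with ASAH1 knockdown. It also reported more SP1 protein and more SP1 bound at the DUSP5 promoter, neither of which was measured in these libraries. Its further evidence was higher SP1 mRNA and protein after carmofur, an inhibitor of ASAH1. With SP1 shRNA it reported less DUSP5 protein and less SP1 at the DUSP5 promoter. Neither treatment is part of these libraries. ACTB itself was lower, by log2 fold changes of -0.89 and -0.52, and relative to it SP1 was 0.92 higher for shRNA #1 (limma adjusted p = 3.90e-05) and 0.70 higher for shRNA #2 (limma adjusted p = 0.000199). The median of all genes moved by 0.89 and 0.53 on that scale. By construction each value on that scale is the change on the deposited scale with the fall of ACTB added. These libraries hold no quantitative PCR values, and the part of ACTB in the study's SP1 result was not tested.

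**Figure D3:**
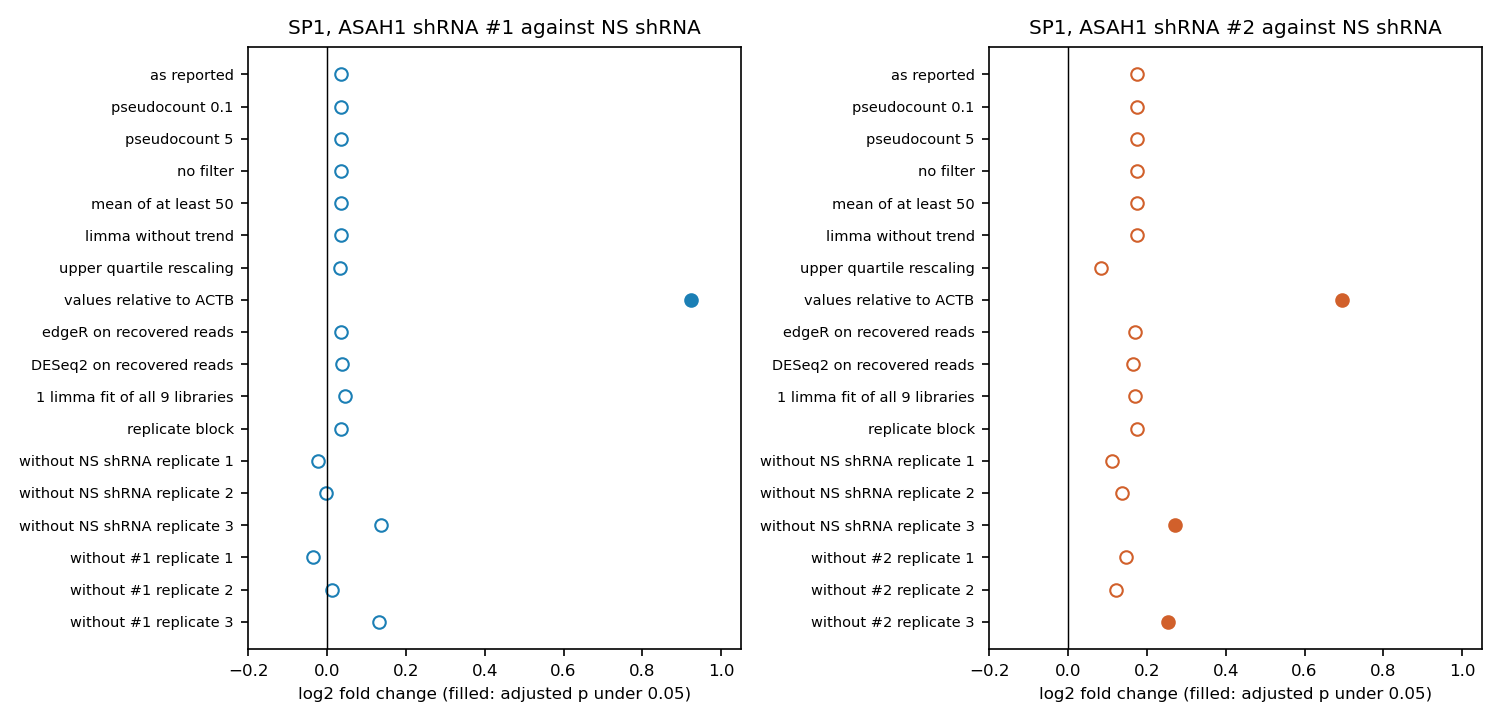
Log2 fold change of SP1 against NS shRNA (horizontal axes) for shRNA #1 (left) and shRNA #2 (right) as reported and under each alternative (rows), with filled points for an adjusted p under 0.05. Values relative to ACTB stand apart at 0.92 and 0.70, and the fits without replicate 3 of NS shRNA or of shRNA #2 are the only others past the threshold, both with shRNA #2.

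SP3, on chromosome 2 from 173880850 to 173965373, competes with SP1 for GC boxes. Its normalized count was 4439, 4633 and 5002 with NS shRNA and 4572, 4365 and 4181 with shRNA #1, and the groups overlapped. The log2 fold change was -0.10 (95% confidence interval -0.23 to 0.03, limma adjusted p = 0.153), and 0.79 relative to ACTB. With shRNA #2 it was 5400, 5805 and 5357 against 4789, 5029 and 5393, a log2 fold change of 0.12 (95% confidence interval -0.01 to 0.26, limma adjusted p = 0.0992). This difference passed without NS shRNA replicate 3 (0.17, limma adjusted p = 0.0354), with the adjusted p of its alternatives between 2.88e-05 and 0.642.

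SP2, on chromosome 17 from 47896150 to 47928957, is a weaker activator that is found at promoters with the CCAAT-binding factor NF-Y. Its normalized count was 849, 792 and 900 with NS shRNA and 1030, 998 and 924 with shRNA #1. Each library with shRNA #1 lay above each NS shRNA library. The log2 fold change was 0.22 (SE 0.07, limma adjusted p = 0.0220). Among the fits that left out a library, its call was lost without NS shRNA replicate 2 (adjusted p = 0.0899), without shRNA #1 replicate 1 (0.0795) and without shRNA #1 replicate 2 (0.0757, all from limma), with the adjusted p of its alternatives between 8.85e-07 and 0.0899. With shRNA #2 it was 809, 892 and 782 against 916, 860 and 971, and the groups overlapped. That log2 fold change was -0.15 (limma adjusted p = 0.126), -0.24 after upper quartile rescaling (adjusted p = 0.0218) and 0.38 relative to ACTB (adjusted p = 0.00476), the adjusted p of its alternatives reaching 0.325.

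SP4, on chromosome 7 from 21428043 to 21514822, is best known from neurons and was, with KLF9, among the 2 least abundant of the 10 genes per length with NS shRNA, where the libraries of SP4 and KLF9 overlapped. Its normalized count was 173, 175 and 220 with NS shRNA and 329, 311 and 289 with shRNA #1. No library of the groups overlapped, and the log2 fold change was 0.72 (SE 0.11, limma adjusted p = 0.000405). With shRNA #2 it was 380, 399 and 336 against 186, 190 and 237, again without overlap, for a log2 fold change of 0.86 (SE 0.12, limma adjusted p = 9.65e-05). SP4 was thus the SP gene of the set that passed with both hairpins.

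KLF10, on chromosome 8 from 102648784 to 102655725, and KLF11, on chromosome 2 from 10042849 to 10054836, were first described as TGF-beta-inducible early genes and repress growth-promoting promoters in several cell types. KLF10 had normalized counts of 1384, 1536 and 1398 with NS shRNA and 6465, 6571 and 6155 with shRNA #1. In the shRNA #2 table it had 1493, 1667 and 1507 with NS shRNA and 8486, 8723 and 8453 with the hairpin. The groups were far apart in both tables, and the spread within each was small beside the difference. The log2 fold change was 2.15 (SE 0.06, limma adjusted p = 6.85e-09) with shRNA #1 and 2.46 (SE 0.06, limma adjusted p = 1.25e-09) with shRNA #2. KLF11 had 884, 870 and 909 with NS shRNA and 1385, 1465 and 1386 with shRNA #1, for a log2 fold change of 0.67 (SE 0.06, limma adjusted p = 5.62e-06). With shRNA #2 it had 1393, 1352 and 1328 against 954, 944 and 981, for a log2 fold change of 0.50 (SE 0.06, limma adjusted p = 4.15e-05). No knockdown library of KLF11 reached down to an NS shRNA library. Both genes kept their direction and their side of the threshold under each of the 17 alternatives run for either hairpin.

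KLF5, on chromosome 13 from 73054976 to 73077541, is an activator of proliferating epithelium that ubiquitin ligases such as WWP1 and FBXW7 mark for degradation. Its normalized count was 1669, 1589 and 1764 with NS shRNA and 2474, 2394 and 2190 with shRNA #1. The log2 fold change was 0.49 (SE 0.06, limma adjusted p = 0.000110). With shRNA #2 it was 3848, 4149 and 3663 against 1801, 1725 and 1902, for a log2 fold change of 1.10 (SE 0.07, limma adjusted p = 2.80e-07). The groups did not overlap in either table, and KLF5 was the gene of the set with the second largest change with shRNA #2.

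KLF9, KLF13 and KLF16 form a closely related branch that represses through SIN3A. KLF9, on chromosome 9 from 70384604 to 70414657 and known for its induction by glucocorticoids, had normalized counts of 194, 201 and 182 with NS shRNA and 231, 236 and 215 with shRNA #1. These groups did not overlap, and the log2 fold change was 0.24 (limma adjusted p = 0.0414). The call was lost in 9 of 17 alternatives, among them the fits that left out NS shRNA replicate 1 (adjusted p = 0.0713), NS shRNA replicate 2 (0.0511), NS shRNA replicate 3 (0.119), shRNA #1 replicate 1 (0.103) or shRNA #1 replicate 2 (0.133, all from limma), with the adjusted p of its alternatives between 2.02e-06 and 0.133. It was also lost with edgeR (adjusted p = 0.0511) and with DESeq2 (adjusted p = 0.0943). With shRNA #2 KLF9 had 277, 239 and 231 against 209, 218 and 196, also without overlap, and a log2 fold change of 0.26 that did not pass (limma adjusted p = 0.0577). It passed in 4 of 17 alternatives, namely without shRNA #2 replicate 3 (0.31, adjusted p = 0.0475), without the trend (0.0428), in 1 fit of all 9 libraries (0.0364) and relative to ACTB (6.66e-05, all from limma). The highest adjusted p of its alternatives was 0.214.

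KLF13, on chromosome 15 from 31326835 to 31435665, was first described as an activator of CCL5 in T cells. It had normalized counts of 1615, 1509 and 1806 with NS shRNA and 1397, 1456 and 1312 with shRNA #1. Each shRNA #1 library lay below each NS shRNA library, with a log2 fold change of -0.24 (SE 0.07, limma adjusted p = 0.0172), although relative to ACTB it was 0.65. With shRNA #2 KLF13 had 2492, 2406 and 2084 against 1743, 1638 and 1947, where each knockdown library lay above each NS shRNA library. That log2 fold change was 0.39 (SE 0.09, limma adjusted p = 0.00221). On the deposited scale and in the fit reported here, KLF13 thus passed in opposite directions with the hairpins.

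KLF16, on chromosome 19 from 1852399 to 1863579, was named as a factor that regulates dopamine receptor genes. It had normalized counts of 2937, 2752 and 2472 with NS shRNA and 2666, 2823 and 3250 with shRNA #1, and the groups overlapped (log2 fold change 0.10, 95% confidence interval -0.09 to 0.29, limma adjusted p = 0.336). With shRNA #2 it had 4672, 3966 and 5185 against 3169, 2987 and 2665, without overlap, for a log2 fold change of 0.64 (SE 0.10, limma adjusted p = 0.000177). Of KLF9, KLF13 and KLF16, the last had the widest relative spread with shRNA #2, at 4608 ± 612 (SD, n = 3).

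The hairpins were then set against each other on reads recovered from the deposited values, by edgeR's quasi-likelihood test over all 9 libraries. With shRNA #2, 5 of the 10 genes were higher than with shRNA #1 (SP3, KLF5, KLF10, KLF13, KLF16) and 2 were lower (SP2, KLF11), where 31.4% of 14381 genes were higher and 32.5% lower. KLF13 had 42.0 ± 2.10 CPM (reads per 1000000 after edgeR's scaling; SD, n = 3) with shRNA #1 and 64.6 ± 5.96 with shRNA #2, a log2 ratio of 0.62 (edgeR adjusted p = 4.58e-05). KLF5 had 71.2 ± 4.33 and 108 ± 7.01 (SD, n = 3), a log2 ratio of 0.60 (edgeR adjusted p = 9.76e-06). KLF16 followed with a log2 ratio of 0.54, KLF10 with 0.29 and SP3 with 0.21, the last of which lost its call with upper quartile factors (0.14, edgeR adjusted p = 0.0536, alternatives from 0.00173 to 0.0536). SP2 was lower with shRNA #2 by a log2 ratio of -0.37 and KLF11 by -0.18 (adjusted p = 0.000740 and 0.00737 from edgeR). For SP1 the log2 ratio was 0.12 with a 95% confidence interval of -0.10 to 0.35, for SP4 0.14 with an interval of -0.10 to 0.37, and for KLF9 0.0018 with an interval of -0.22 to 0.22, and none of these passed.

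Levels can be compared between genes only per length, so the recovered reads were turned into RPM and divided by the summed length in kilobases of the exons of each gene in GENCODE. With NS shRNA, KLF16 was the most abundant transcript at 28.4 ± 2.34 RPM per kilobase (SD, n = 3), followed by KLF5 at 14.1 ± 0.771 and KLF10 at 11.7 ± 0.685. SP1 (9.44 ± 1.21) and SP3 (8.60 ± 0.557) came next with overlapping libraries, then SP2 (7.34 ± 0.484), and KLF11 (5.98 ± 0.151) and KLF13 (5.39 ± 0.508) overlapped as well. KLF9 (1.14 ± 0.0554) and SP4 (0.940 ± 0.136) were the least abundant, also with overlapping libraries. With the length of the canonical transcript in place of all exons, SP3 came before SP1 in NS shRNA without overlap and KLF5 and KLF10 overlapped, so that part of the order rests on the length used. KLF10 stood first with both hairpins, at 52.4 ± 1.83 with shRNA #1 and 58.4 ± 1.40 with shRNA #2, under either length. KLF16 came next at 30.8 ± 3.13 and 40.5 ± 5.13, then KLF5, while SP4 stood above KLF9 with each hairpin, at 1.56 ± 0.104 against 1.37 ± 0.0674 and at 1.56 ± 0.145 against 1.25 ± 0.121, without overlap.

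The make-up of the pooled family transcripts was described from the same levels. Of the summed level per length of the 10 genes, KLF10 made up 12.5% ± 0.890 (SD, n = 3) with NS shRNA, 35.7% ± 0.655 with shRNA #1 and 34.8% ± 0.737 with shRNA #2. SP1 made up 10.1% ± 1.18, 6.66% ± 0.699 and 5.78% ± 0.558 in the same order. The 4 SP genes together held between 26.8% and 30.7% of the pool in the NS shRNA libraries, between 17.9% and 20.3% with shRNA #1 and between 14.3% and 16.5% with shRNA #2, and the groups did not overlap. No test was run on these shares. These shares need no scaling between libraries, and a share can fall while the level of a gene does not.

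**Figure D4:**
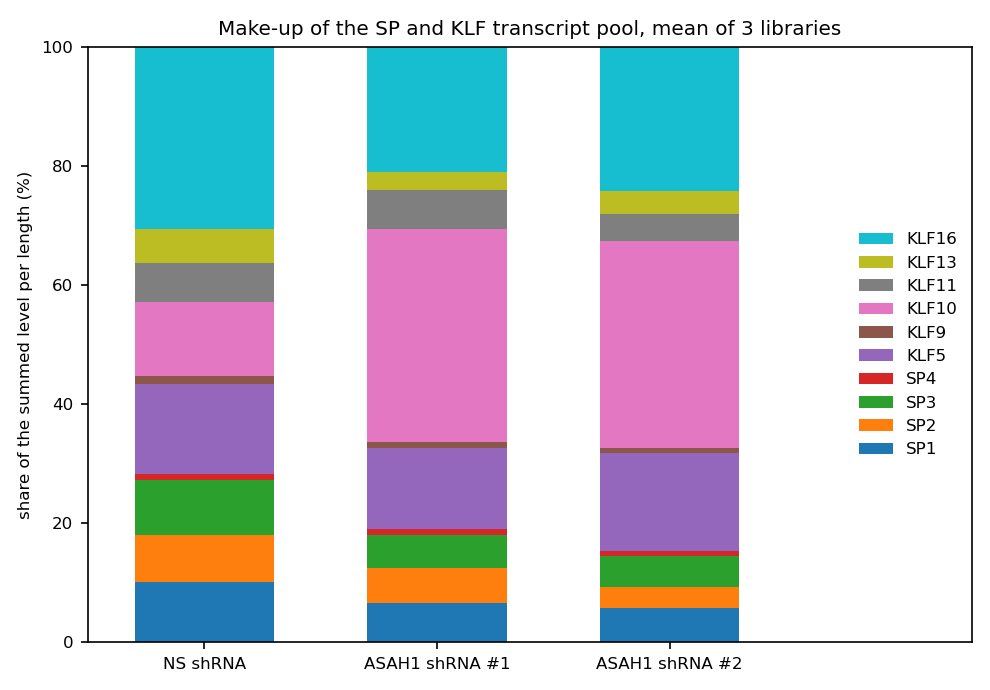
Share of the summed level per length (vertical axis, percent, mean of 3 libraries) held by each SP and KLF gene in the groups (bars). The KLF10 segment grows from 12.5% with NS shRNA to 35.7% with shRNA #1 and 34.8% with shRNA #2, and the SP1 segment narrows from 10.1% to 6.66% and 5.78%.

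Reads relative to SP1 within the same library likewise need no size factor and no reference gene. On this log2 scale KLF10 went from -0.77 ± 0.21 (SD, n = 3) with NS shRNA to 1.35 ± 0.13 with shRNA #1 and 1.52 ± 0.12 with shRNA #2. KLF5 went from -0.55 ± 0.12 to -0.10 ± 0.08 and 0.38 ± 0.07, so that its reads exceeded those of SP1 in the shRNA #2 libraries only. SP4 moved by 0.68 and 0.69 and KLF11 by 0.63 and 0.33, and for these 4 genes no knockdown library overlapped an NS shRNA library with either hairpin. Taking 1 hairpin at a time and either direction, 49.5% of 14340 other genes did not overlap with shRNA #1 and 56% of 14249 with shRNA #2. The share of all genes without overlap with both hairpins was not computed, so the 4 genes are not set against it. KLF13 moved by -0.28 with shRNA #1 and 0.22 with shRNA #2, in each case without overlap. SP3 and KLF9 overlapped with both hairpins, by -0.14 and -0.05 for SP3 and 0.21 and 0.08 for KLF9. KLF16 overlapped with both as well, SP2 with shRNA #1 alone. These ratios also hold the spread of SP1 between libraries, and those of KLF16 had SDs of 0.30, 0.32 and 0.33 in the order of the groups above. The normalized counts of KLF16 with shRNA #2, of SP2 with shRNA #1 and of KLF9 with both hairpins did not overlap NS shRNA. With 3 libraries against 3 an exact permutation test cannot go below p = 0.1, so these ratios are given without a test.

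**Figure D5:**
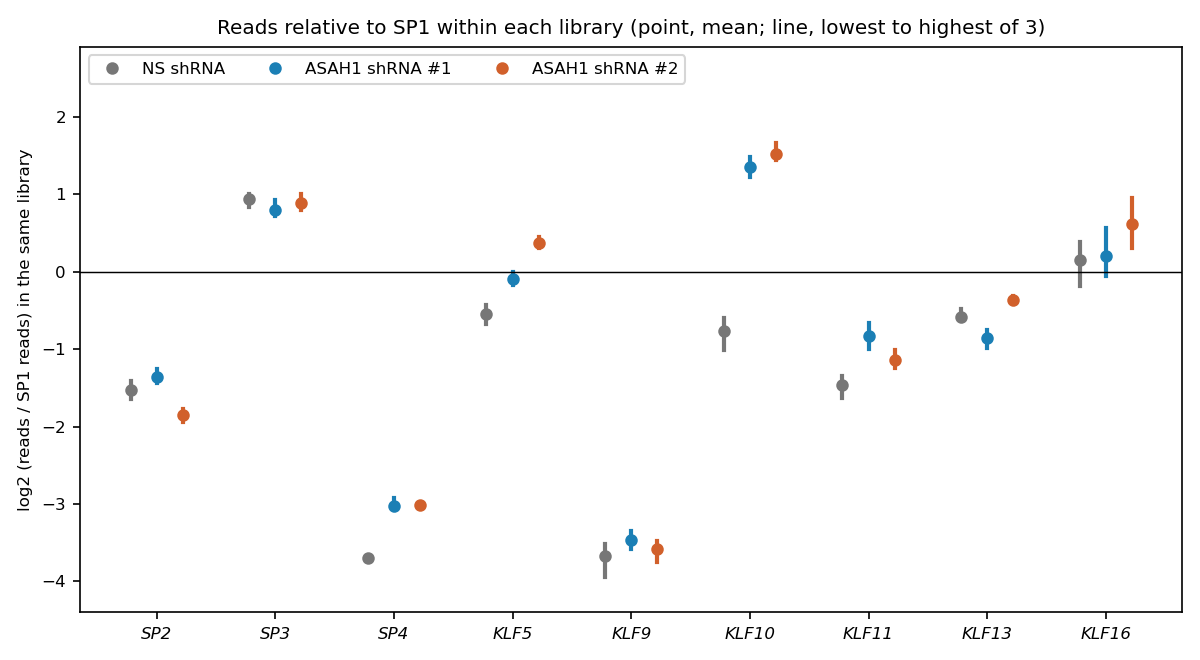
Log2 ratio of the reads of each gene to those of SP1 in the same library (vertical axis), with NS shRNA in grey, ASAH1 shRNA #1 in blue and ASAH1 shRNA #2 in orange; points are means and lines run from the lowest to the highest of 3 libraries. KLF10 rises from -0.77 to 1.35 and 1.52 and SP4 moves by 0.68 and 0.69, while SP3 overlaps between groups.

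Of the 17 other SP and KLF genes, 16 matched a row, and 12 were tested with shRNA #1 and 11 with shRNA #2. With shRNA #1, 4 of 12 were higher and 3 lower (median log2 fold change -0.07), and with shRNA #2, 2 of 11 were higher and 4 lower (median -0.03), while relative to ACTB 9 of 11 tested were higher and 2 lower with shRNA #1 and 6 were higher and 0 lower with shRNA #2. Of all genes tested, 32.8% were higher and 33.3% lower with shRNA #1, and 33.5% were higher and 33.4% lower with shRNA #2. KLF4, a regulator of epithelial differentiation, was higher with both, with log2 fold changes of 1.34 and 1.20. KLF6, a widely expressed factor that can activate CDKN1A, had 9578 ± 116 with NS shRNA and 21730 ± 404 with shRNA #1 (SD, n = 3), a log2 fold change of 1.18, but 0.09 with shRNA #2 (limma adjusted p = 0.123). KLF7 (0.68) and KLF15 (0.52) were also higher with shRNA #1, while their values with shRNA #2, -0.03 and 0.19, did not pass. SP5, a target of WNT signalling, was lower with both hairpins (-1.58 and -0.83), although relative to ACTB its value with shRNA #2 was -0.31 and did not pass (limma adjusted p = 0.0753, alternatives from 2.72e-06 to 0.0753). Also lower with both were KLF17 (-1.55 and -0.75) and SP6 (-0.42 and -0.51, but 0.46 and 0.01 relative to ACTB). KLF17 with shRNA #2 lost its call without NS shRNA replicate 1 (-0.64, adjusted p = 0.0683) and without shRNA #2 replicate 3 (-0.61, adjusted p = 0.0524), and it was -0.24 relative to ACTB (adjusted p = 0.377, all from limma, alternatives from 0.00520 to 0.377). The reads of KLF17 were 58, 47 and 54 with NS shRNA, 8, 24 and 25 with shRNA #1 and 42, 30 and 35 with shRNA #2. KLF2, a factor of quiescent endothelium and lymphocytes, was lower with shRNA #2 (-0.72, and -0.20 with no call relative to ACTB) and had -0.09 with shRNA #1 (limma adjusted p = 0.518, and 0.80 relative to ACTB). KLF3, a CTBP-recruiting repressor, was higher with shRNA #2 (0.20, limma adjusted p = 0.0314), a call lost in 7 of 17 alternatives, among them those without NS shRNA replicate 1 (0.16) or 2 (0.19) and without shRNA #2 replicate 1 (0.20) or 2 (0.14), and had -0.06 with shRNA #1. KLF12 passed with neither hairpin on the deposited scale (-0.22 and 0.03), though relative to ACTB it did (0.66 and 0.55). KLF14 passed with neither (-0.67 and -0.74), but without NS shRNA replicate 3 it passed at -1.07 with shRNA #1 (limma adjusted p = 0.0332, alternatives from 0.0332 to 0.292) and at -1.15 with shRNA #2 (limma adjusted p = 0.0407, alternatives from 0.0407 to 0.588). These values rest on 17, 15 and 7 reads with NS shRNA, 5, 9 and 8 with shRNA #1 and 8, 5 and 12 with shRNA #2. KLF8, tested with shRNA #1 alone (0.12), had 15, 12 and 17 reads with NS shRNA, 18, 17 and 12 with shRNA #1 and 0, 6 and 1 with shRNA #2. SP7, SP8, SP9 and KLF1 had no more than 3 reads in any library.

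Cofactors that SP and KLF proteins recruit, or enzymes that modify them, were considered next. Of 19 such genes tested, 10 were higher and 4 lower with either hairpin (medians 0.12 and 0.28), and relative to ACTB 18 and 17 were higher and 0 lower. The shares over all genes were 32.8% higher and 33.3% lower with shRNA #1, and 33.5% and 33.4% with shRNA #2. OGT, the transferase that places O-GlcNAc on SP1 and many other nuclear proteins, was higher with both hairpins, by 0.56 and 1.09 on the log2 scale. NFYC and NFYB encode subunits of NF-Y, which binds CCAAT boxes beside GC boxes. NFYC was higher (1.08 and 0.56) and NFYB lower (-0.42 and -0.52, but 0.47 and 0.01 relative to ACTB). KAT2B, an acetyltransferase, was lower as well (-0.72 and -0.52, but 0.17 and -0.0018 relative to ACTB, neither of which passed, at limma adjusted p = 0.179 and 0.989). Among GC-rich site binders of other families, 4 of 12 were higher and 4 lower with shRNA #1, and 7 were higher and 1 lower with shRNA #2 (7 and 4 after upper quartile rescaling, and relative to ACTB 12 and 10 higher and 0 lower with the hairpins in turn), beside the same shares of all genes (32.8% and 33.3%, then 33.5% and 33.4%). EGR1, an immediate early factor whose sites often overlap those of SP1, rose from 270 ± 48.5 to 1897 ± 119 with shRNA #1 (SD, n = 3, log2 fold change 2.82) and by a log2 fold change of 0.80 with shRNA #2. TFAP2C was higher by 0.21 and 0.44. With shRNA #1 its call (limma adjusted p = 0.0331) was lost in 7 of 17 alternatives, among them those without NS shRNA replicate 2 (0.0944) or 3 (0.0609) and without shRNA #1 replicate 2 (0.0941) or 3 (0.105), with alternatives from 5.66e-07 to 0.105.

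Genes with GC-box promoters described for them were counted next. With shRNA #1, 6 of 19 were higher and 10 lower (median log2 fold change -0.23), where 32.8% of all genes were higher and 33.3% lower. With shRNA #2, 12 of 20 were higher and 5 lower (median 0.52), where the shares were 33.5% and 33.4%, while relative to ACTB 16 and 17 were higher and 1 lower. CDKN1A, the cell cycle inhibitor p21, was higher with both hairpins (2.03 and 1.85), and so was VEGFA, the angiogenic growth factor (1.38 and 2.37). IGF1R, a growth factor receptor, was lower with both (-0.81 and -0.86), but relative to ACTB it was 0.08 with shRNA #1. DUSP5 belongs to this list, with log2 fold changes of 1.52 and 0.93.

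Lists that surround KLF10, KLF11 and KLF9 were examined in the same way. Of 13 TGF-beta early response genes, 4 were higher and 7 lower with either hairpin, with medians of -0.12 and -0.27, where 32.8% and 33.5% of all genes were higher and 33.3% and 33.4% lower. Relative to ACTB 10 and 9 were higher and 2 and 4 lower. SKIL (0.42 and 0.75) and TGIF1 (0.64 and 0.26), both repressors of SMAD signalling, were higher, although TGIF1 with shRNA #2 lost its call after upper quartile rescaling (0.17, limma adjusted p = 0.0503, alternatives from 5.76e-06 to 0.0503), whereas ID1 (-2.22 and -1.71) and the inhibitory SMAD6 (-2.04 and -1.26) were lower. Of 7 glucocorticoid response genes, 6 were higher with shRNA #1 (median 0.79), and 4 were higher and 2 lower with shRNA #2 (median 0.31), while relative to ACTB 7 and 5 were higher and 0 lower, beside the same shares of all genes (32.8% and 33.5% higher, 33.3% and 33.4% lower). DUSP1 (1.72 and 1.12) and PER1 (1.22 and 0.54) were higher with both.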

How the data were processed

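RNA of 9 libraries of MDA-MB-231 cells, 3 for each of 3 shRNA groups, was sequenced as strand-specific single-end reads. The sources differ on the selection of RNA: the extraction protocol names oligo-dT beads, and the series' design text names removal of ribosomal RNA. Per the study's methods, the authors used Trimmomatic 0.36 for trimming, STAR 2.7.1a for alignment (hg38), HTSeq for counts per gene and DESeq2 1.28 for normalization; another passage of their methods names RSEM and edgeR. Each of the 2 deposited tables holds a normalized signal, the gene count divided by a size factor per library, for 1 hairpin and the shared NS shRNA libraries. Whole reads were recovered from 100% of the deposited values (within 0.001) and differed at 0 places between the NS shRNA columns of the tables, and gene symbols stored as dates (28) were read from the other table. Columns with the authors' own fold changes, test statistics and p-values were not used.

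Each hairpin was compared with NS shRNA in its own table by limma 3.58.1 (R 4.3.3, intensity trend) on log2(value + 1), for genes with a mean of at least 10, at a Benjamini-Hochberg adjusted p below 0.05. The hairpins were compared on recovered reads by edgeR 4.0.16, and DESeq2 1.42.0 served as an alternative. Intervals are 95% confidence intervals. Levels per length used exons of GENCODE 44, promoter windows came from RefSeq (GRCh38.p14), and scripts were tested on simulated data. Alternatives were the pseudocount (0.1, 5), the filter (none, 50), the trend, the scaling (upper quartile, ACTB), the tool, a replicate block and leaving out each library. The members and gene lists were chosen with earlier results of these data known, and ACTB scaling of the other lists was added after seeing the data. Named were all members, every tested family relative, ASAH1, ACTB and DUSP5, and of each other list up to 2 genes with the highest and 2 with the lowest mean change among those that passed in the same direction with both hairpins, apart from a gene that is not reported here.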

Additional observations from a re-analysis of the deposited data

Results flagged for a closer look

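The effect of the hairpins differed for 7 of the 10 SP and KLF genes by edgeR's test of shRNA #2 against shRNA #1, where 31.4% of all 14381 genes were higher and 32.5% lower with shRNA #2. The log2 ratio was 0.62 for KLF13, 0.60 for KLF5, 0.54 for KLF16, 0.29 for KLF10 and 0.21 for SP3, and it was -0.37 for SP2 and -0.18 for KLF11. KLF13 stood on opposite sides of NS shRNA with the hairpins, except relative to ACTB.

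Among the relatives, the log2 ratio was 0.77 for SP5, 0.25 for KLF3, -0.64 for KLF2, -0.72 for KLF7 and -1.10 for KLF6. KLF4 (-0.15) lost its call without shRNA #1 replicate 1 and without shRNA #2 replicate 1 or 3, and KLF15 (-0.34) lost it without shRNA #1 replicate 1 and without shRNA #2 replicate 2 or 3. KLF8 (-2.92) rests on 0, 6 and 1 reads with shRNA #2 and reached -4.91 without shRNA #2 replicate 2. The cause of these differences was not tested.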

How the results depend on the processing

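Of 490 values of the 10 genes under alternatives, 453 changed neither sign nor call, 15 lost and 12 gained a call and 10 changed sign; of 1197 values of the other named genes these were 1139, 29, 11 and 18. Relative to ACTB, which moved the median of all genes by 0.89 and 0.53 and the share of higher among called genes from 49.6% to 96.5% and from 50.1% to 85.4%, the count of higher members became 10 and 10 and that of lower members with shRNA #1 became 0. By construction that scale adds the fall of ACTB to each gene, and on it the sign changed for SP3 (0.79), KLF13 (0.65), SP6 (0.46), KLF2 (0.80), KLF3 (0.83), KLF12 (0.66), KAT2B (0.17), NFYB (0.47) and IGF1R (0.078) with shRNA #1 and for SP2 (0.38), SP6 (0.010), KLF7 (0.49) and NFYB (0.0053) with shRNA #2. Upper quartile scaling gave 1 lower member with shRNA #2, turned KLF12 with shRNA #2 to -0.060 and KLF9 between hairpins to -0.074, and a minimum mean of 50 turned the latter to -0.012; the cause was not tested. Leaving out 1 library gave 4 to 6 higher and 1 lower members with shRNA #1, 6 to 8 and 0 with shRNA #2, and 5 and 2 between hairpins; SP1 with shRNA #1 ran from -0.036 to 0.14, KLF2 from -0.21 to 0.026, KLF8 from -0.17 to 0.33, KLF7 with shRNA #2 from -0.096 to 0.084, KLF12 from -0.059 to 0.14, and KLF9 between hairpins from -0.076 to 0.057. Replicate numbers did not pair the libraries (correlations -0.69 to 0.57, 2 of 9 highest with their own number), and the replicate block gave 0 lower members with shRNA #1 against 1, and 4 higher against 6, as KLF13 (limma adjusted p = 0.0641), SP2 (0.0742) and KLF9 (0.0886) lost their calls. Depth limits KLF8, KLF14, KLF17 with shRNA #1 and the relatives with at most 3 reads.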
